A study of Gallus gallus with 3 samples.

Results

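The untransfected DT40-ASF library was described alone, by the absolute level of each gene. It is 1 of the 3 RNA-seq libraries of the series, and it was chosen as the control by its title, which calls the cells untransfected. DT40 is a B cell line from a chicken lymphoma of the bursa of Fabricius, the organ in which birds form their B cells. As background known of the line but stated in none of the files, DT40-ASF cells have their own chicken SRSF1 gene disrupted and live on a human copy. SRSF1, once called ASF, is a splicing regulator of the SR protein family. The labels call all 3 libraries reconstituted cells, so the control carries that background too. The other 2 libraries, SRSF1-3 knock-in clones 41 and 47, were not analysed here. The cells were grown in RPMI medium with fetal bovine serum and chicken serum, untreated, as 1 line in 1 culture sample. With 1 library there were no replicates, no test was possible, and every interval below covers counting error only. PCR copies of 1 molecule are counted as separate reads, so the intervals may be too narrow even for that.

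Bird B cells build their antibody genes unlike those of mice or humans. Rearrangement by the RAG recombinase happens early and leaves little diversity, and the bursa then diversifies the rearranged genes by copying stretches of upstream pseudogenes into them. That gene conversion starts with deamination of cytosine, passes through removal of uracil by a glycosylase, and is completed by homologous recombination. DT40 cells are known to continue gene conversion in culture and to integrate transfected DNA at matching sites with unusual efficiency, and they are widely used for gene targeting in DNA repair. The line came from a tumour induced by avian leukosis virus, in which integration of the provirus near MYC is the classical event.

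Levels are given in FPKM, fragments scaled to transcript length and library size, as the authors deposited them, with the read count behind them where it matters. A gene was called on at an FPKM of at least 1 and off below 0.1, and values from 0.1 to below 1 were counted as neither. FPKM values were listed for 11929 genes and counts for 11877, of which 11546 had both. The counts summed to 44868987, and 8440 genes (71.1% of those counted) had at least 100. The limit that a count of 0 allows was taken as 3 counts, which is 0.06686 CPM, the count scaled to a total of 1000000. Of all genes listed with an FPKM, 8259 (69.2%) were on, 1630 (13.7%) lay between and 2040 (17.1%) were off. The median FPKM was 7.43, with lower and upper quartiles of 0.368 and 25.4, and the median over genes that were on was 16.4. In all, 5341 genes reached an FPKM of 10, 719 reached 100 and 74 reached 1000. In a bulk library a low level can come from few cells or from little RNA in each, and these cannot be told apart.

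**Figure D1:**
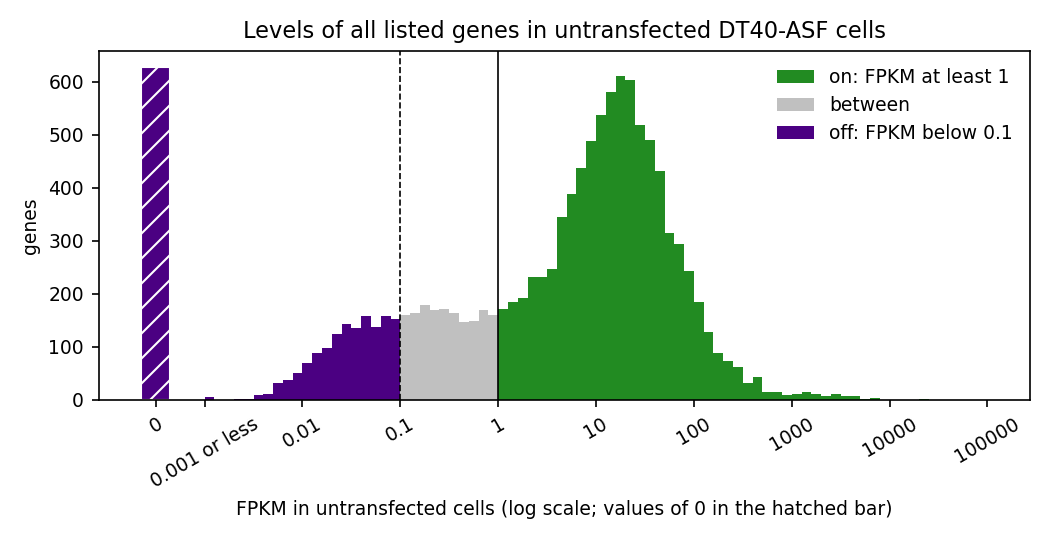
Histogram of the FPKM of every listed gene in the untransfected library on a log10 axis, with the thresholds for off (below 0.1) and on (at least 1) marked. Most genes sit in 1 hump around the median of on genes at 16.4 FPKM, a low shoulder runs through both thresholds, and the hatched bar holds 627 genes listed at 0.

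The thresholds cut through a continuous range of values. Among the listed members of the gene lists used below, the values just under an FPKM of 1 were 0.990 for MPO, 0.982 for IL21R and 0.963 for IL16, and those just above were 1.00 for CD5, 1.01 for FZD7 and 1.04 for NTRK3. At the lower threshold, SMAD3 (0.0934), RET (0.0946) and BMP2 (0.0956) were just off, while BCL2A1 (0.1001), CCR7 (0.102) and MSTN (0.103) were just above it. A class of these genes is therefore a matter of the threshold and not of a gap in the data.

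The most abundant RNAs were those of mitochondria, of ribosomes and of the translation machinery. The 100 genes of highest FPKM held 43.6% of the FPKM sum, and 12 of them were mitochondrial and 50 encoded ribosomal proteins. The 13 mitochondrial genes held 10.5% of the FPKM sum and 3.33% of the counts (exact binomial 95% interval 3.32% to 3.33%). Their levels ran from 452 to 21636 FPKM. The highest by FPKM was ATP8, a subunit of ATP synthase, at 21636 FPKM on 38056 counts. The cytochrome oxidase subunits followed, COX3 at 6473, COX1 at 5306 (424539 counts) and COX2 at 4335 FPKM. ATP8 had far fewer counts than COX1, so its rank by FPKM and its part in the mitochondrial FPKM share are uncertain. The 67 ribosomal protein genes had a median of 1483 FPKM, 66 of them were on, and they held 22.6% of the FPKM sum and 8.30% of the counts. Among them RPL36 (6472 FPKM, 9427 counts), RPSA (5540.1 FPKM, 295136 counts) and RPS25 (4839.6 FPKM, 96735 counts) were highest by FPKM. RPL36 had by far the fewest counts of these, so its rank by FPKM is uncertain.

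Only 4 of the 30 highest genes were neither mitochondrial, ribosomal nor short RNAs. EEF1A1, the elongation factor that carries tRNA to the ribosome, had 3692 FPKM (367599 counts). PABPC1, which binds poly(A) tails, had 2842 FPKM (290138 counts), and NPM1, the nucleolar chaperone nucleophosmin, had 2831 FPKM (112820 counts). The remaining one was ITGB1BP3, the older symbol of nicotinamide riboside kinase 2, an enzyme of NAD synthesis best known from muscle in mammals, at 3536 FPKM (111273 counts). It ranked 16 among all listed genes. Another 4 of the 30 were microRNA entries. MIR1747 had 6523 FPKM on 3 counts and MIR2129 4043 FPKM on 59 counts, while MIR762 and MIR135A1 had no row among the counts. The 50 short RNAs of the table held 4.50% of the FPKM sum, while short RNAs held 0.00370% of the counts (exact binomial 95% interval 0.00353% to 0.00388%), so none of them is read as abundant here.

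Below the 30 highest, the genes described next were picked after their values were seen. RACK1, a ribosomal scaffold protein, stood at 1599 FPKM and the immunoglobulin lambda constant region, listed under the protein entry name LAC_CHICK, at 1587 FPKM (83510 counts, rank 49). YBX1, an mRNA-binding protein, had 1389 FPKM, CALM, a calmodulin gene, 1221 FPKM, and PPIB, a chaperone of the endoplasmic reticulum, 1125 FPKM. The stress-response factor ATF4 had 736 FPKM and the heat shock cognate HSPA8 had 644 FPKM. The gene that the series is designed around, SRSF1, had 43.6 FPKM on 1402 counts, and neither value separates its isoforms. Nor does either separate reads of the disrupted chicken gene from reads of the human copy that may have aligned to the chicken genome. These values are therefore not read as the SRSF1 level of the cells.

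Markers of the B cell identity given by the label are described first. They were chosen with earlier results of these data known, so they are no independent check of it. Of the 10 B cell markers, 9 were on and TNFRSF13C, the receptor for the survival cytokine BAFF, lay between at 0.473 FPKM, and their levels summed to 296 FPKM. Of the 4 plasma cell markers, 3 were on and PRDM1 lay between, with a sum of 650.1 FPKM that was mostly JCHAIN. Across the 4 B-lineage lists, 109 of 136 listed genes (80.1%) were on and 6 were off, with a median of 12.0 FPKM, against 69.2% on and a median of 7.43 FPKM over all listed genes.

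Transcription factors of B cells were nearly all on, 25 of 28 listed (89.3%), against 69.2% of all listed genes. TCF12, an E protein that partners other helix-loop-helix factors, was highest at 169.8 FPKM (37397 counts), and its relative TCF3, the source of E2A, had 33.6 FPKM. PAX5, which holds cells to the B lineage, had 16.6 FPKM (1648 counts). Its partner EBF1, needed for early B cell specification, had 2.05 FPKM on 332 counts (exact Poisson 95% interval 297 to 370). The octamer coactivator POU2AF1 had 42.7 FPKM, SPI1, the ETS factor PU.1, 25.4 FPKM and IKZF1, the factor Ikaros, 11.4 FPKM. LEF1, a partner of beta-catenin in pre-B and T cells, was off at 0.0172 FPKM with a count of 0. RUNX3 lay between at 0.863 FPKM, below RUNX1 at 12.7 FPKM.

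Factors of the germinal centre, the site where mammalian B cells mutate their antibody genes, were on in all 5 cases. IRF8, an interferon regulatory factor of germinal centre B cells and myeloid cells, led at 139 FPKM (15169 counts). IRF4, which in high amounts drives plasma cell formation, had 13.6 FPKM, so IRF8 stood 10.3-fold above it (95% counting interval 9.88 to 10.7). BCL6, the repressor that keeps germinal centre cells from differentiating, had 9.74 FPKM, and BACH2, another repressor of that step, 4.92 FPKM. The plasma cell regulators were far apart. XBP1, the factor of the secretory stress response, had 166 FPKM on 15095 counts, and PRDM1, the repressor Blimp-1 that closes the B cell programme, had 0.942 FPKM on 338 counts, a ratio of 176 (95% counting interval 158 to 197). JCHAIN, the joining chain of polymeric antibodies, was nevertheless at 469.9 FPKM (110424 counts).

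**Figure D2:**
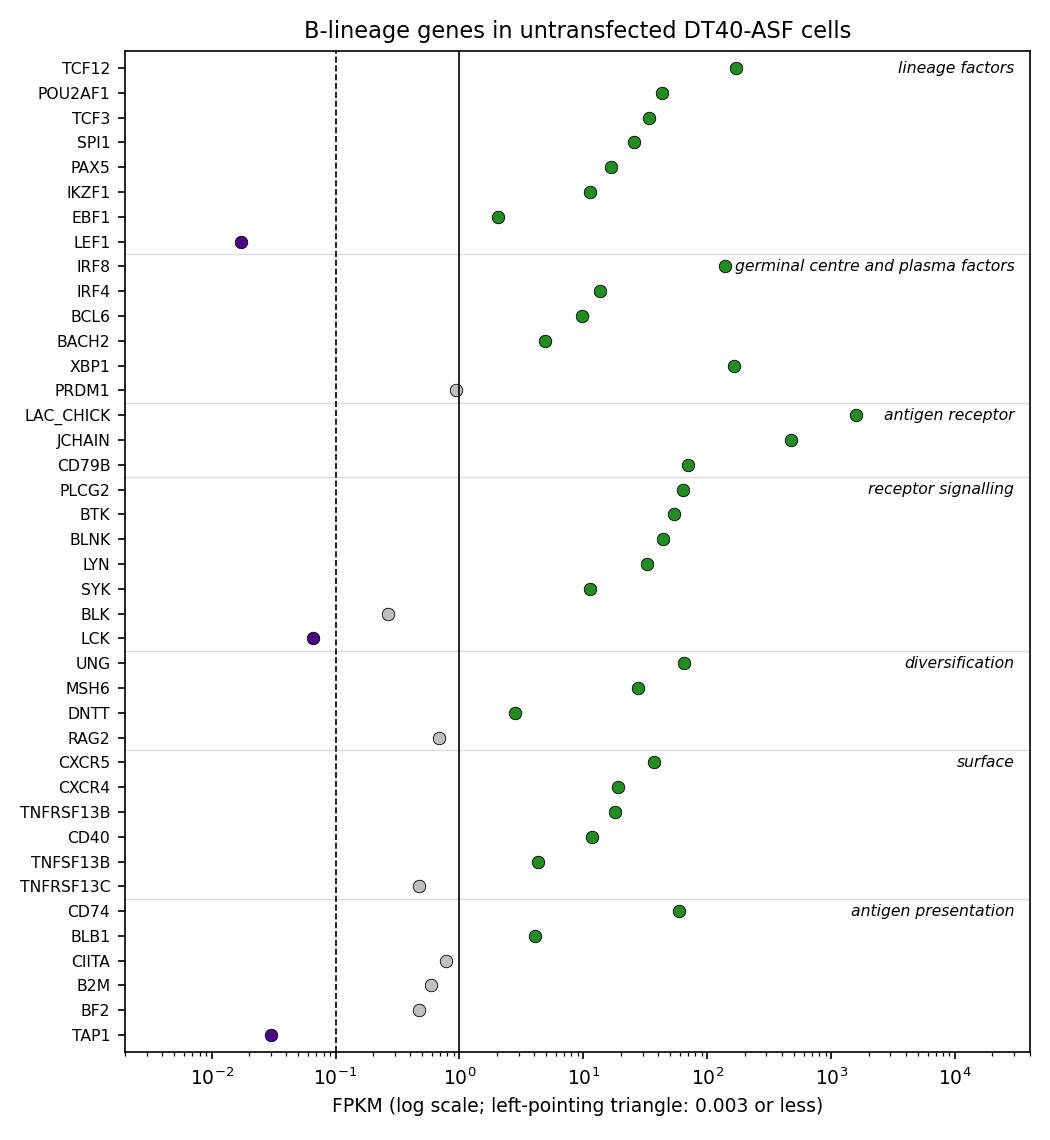
FPKM of B-lineage genes in the untransfected library, 1 point a gene on a log10 axis, ordered by role, with the thresholds for off (below 0.1) and on (at least 1). Factors, receptor signalling and diversification genes lie mostly to the right of 1 FPKM, while PRDM1 (0.942), RAG2 (0.682), B2M (0.585) and TNFRSF13C (0.473) lie between.

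Of 42 listed genes of B cell receptor signalling, 38 (90.5%) were on, against 69.2% of all listed genes. CD79B, 1 of the signalling subunits of the receptor, had 69.2 FPKM (6053 counts), PTPRC, the phosphatase CD45, 116 FPKM and CD72, a co-receptor, 50.1 FPKM. Of 21 listed proximal kinases and adaptors, 19 were on. BTK, the Tec-family kinase, had 53.8 FPKM, the adaptor BLNK 44.0, phospholipase PLCG2 64.2 and the adaptor GRB2 154 FPKM. SYK, the kinase recruited to the phosphorylated receptor, had 11.4 FPKM on 3739 counts. The SRC-family kinases that start the signal differed in level. LYN had 32.3 FPKM (5847 counts) and FYN 9.27, whereas BLK lay between at 0.265 FPKM on 40 counts (exact Poisson 95% interval 28.6 to 54.5) and LCK, the T cell member, was off at 0.0653 FPKM on 12 counts. LYN was 122-fold above BLK per length (95% counting interval 89.3 to 171).

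Further down the pathway, 11 of 13 calcium and distal genes (84.6%) were on, against 69.2% of all listed genes. The calcium channel of the endoplasmic reticulum ITPR2 had 25.0 FPKM and protein kinase PRKCB 17.1 FPKM. Of the calcium-dependent NFAT factors, NFATC3 was on at 33.7 FPKM, NFATC1 lay between at 0.244 FPKM on 53 counts and NFATC2 was off at 0.0245 FPKM on 2 counts. All 4 inhibitors listed were on, led by the phosphatase PTPN6 at 44.5 FPKM and followed by the adaptor DOK3 at 25.4, the kinase CSK at 16.5 and the lipid phosphatase INPP5D at 7.05 FPKM. CD79A, CD22, CR2, VAV1 and MALT1 are not listed in either table under these names and were not analysed here.

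Genes of antibody diversification were on in 25 of 27 cases (92.6%), against 69.2% of all listed genes, and none was off. UNG, the glycosylase that removes uracil from DNA, had 65.2 FPKM (3846 counts). The mismatch repair gene MSH6 had 27.8 FPKM (7772 counts). Among proteins known to guide or limit diversification of antibody genes, 14 of 15 were on, including the transcription elongation factors SUPT5H (35.1 FPKM) and SUPT6H (27.7 FPKM), the splicing-related CTNNBL1 (46.9 FPKM) and the export receptor XPO1 (202 FPKM). PRKACA, the catalytic subunit of protein kinase A, was the exception at 0.310 FPKM on 18 counts. On the side of V(D)J rearrangement, RAG2 lay between at 0.682 FPKM on 82 counts (exact Poisson 95% interval 65.2 to 102). DNTT, the terminal transferase that adds bases at rearranged joints, was on at 2.82 FPKM with 1069 counts.

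Surface molecules were the least uniform B-lineage list, with 21 of 39 on (53.8%), 15 between and 3 off. That share on is below the 69.2% of all listed genes. Among receptors of the BAFF system, TNFRSF13B, the receptor TACI, had 18.0 FPKM on 1251 counts and TNFRSF13C had 0.473 FPKM on 22 counts, a ratio of 38.1 (95% counting interval 25.1 to 61.1). TNFSF13B, which encodes BAFF itself, was on at 4.29 FPKM (965 counts). CD40, the receptor for T cell help, had 11.7 FPKM. The follicle homing receptor CXCR5 had 36.9 FPKM and CXCR4 18.8 FPKM, while CCR6 and CCR7 had 0.169 and 0.102 FPKM.

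Antigen presentation genes were mostly low, with 2 of 10 on (20%), against 69.2% of all listed genes. CD74, the invariant chain that escorts class II molecules, had 58.8 FPKM on 3667 counts, and BLB1, a class II beta chain, 4.08 FPKM on 88 counts. The class II transactivator CIITA lay between at 0.777 FPKM. On the class I side, the light chain B2M had 0.585 FPKM on 8 counts (exact Poisson 95% interval 3.45 to 15.8), BF2 and BF1, the class I heavy chains, had 0.472 and 0.219 FPKM, and the peptide transporter TAP1 was off at 0.0301 FPKM on 7 counts. The class I and class II chain genes of chickens are short and compact, with similar copies within each class. Reads shared by near-identical copies may have been split or dropped by the counting, so the levels of BF1, BF2 and BLB1 are uncertain. The reason for the low counts of B2M and TAP1 was not tested. The costimulatory molecules CD80 and CD86 had 3 and 4 counts.

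Of 7 Toll-like receptors and their adaptor MYD88, 5 genes were on (62.5%), near the 69.2% of all listed genes. The adaptor MYD88 had 7.92 FPKM, TLR4, the sensor of lipopolysaccharide, 3.41, TLR7, a sensor of single-stranded RNA, 2.71 and TLR21, the chicken sensor of unmethylated CpG DNA, 2.46 FPKM. TLR15, a receptor of birds and reptiles, was listed at 0.646 FPKM on 1 count, which is within the counting floor. Integrin beta chain ITGB1 had 123 FPKM (27209 counts), against 3.40 FPKM for ITGB2, the leukocyte beta chain.

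Markers of other cell types were low as a group. Of 74 listed, 20 were on, 20 lay between and 34 were off, with a median of 0.132 FPKM. That is 45.9% off, against 17.1% of all listed genes. The 10 T and NK cell markers summed to 13.9 FPKM, and 5 were on. CD3D had 4.42 FPKM (268 counts), CD28 3.43 (225 counts), the zeta chain CD247 2.73 (267 counts), CD8A 1.24 (1011 counts) and CD5 1.00 FPKM (133 counts). Their partners were low, with CD3E at 0.257 FPKM, CD4 at 0.0180 FPKM on 1 count and the kinase ZAP70 listed at 0. CD8A had many counts for its FPKM, and the reason was not tested. Of 7 myeloid markers, CEBPB (46.3 FPKM) and the oxidase subunit CYBB (7.89 FPKM) were on, and CSF1R, the macrophage growth factor receptor, was listed at 0. CYBB is also part of the B cell oxidase in mammals, and CEBPB is a broadly used factor.

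The other non-B markers that were on were mixed. On were 3 of 10 stromal, 2 of 8 endothelial and 3 of 7 neuronal markers. So were 2 of 7 muscle, 1 of 7 liver and 2 of 8 germ and pluripotent cell markers. The highest level was 5.73 FPKM in the endothelial, 2.97 in the stromal, 2.51 in the muscle and 1.08 FPKM in the liver list. STMN2, a microtubule regulator known from neurons, had 463 FPKM on 20209 counts and ranked 123 of 11929. It stood 3.01-fold above its broadly used relative STMN1 at 153.6 FPKM, and made up nearly all of the 474 FPKM summed over 7 neuronal markers, of which SNAP25, NEFL and ELAVL4 were off. The germ cell markers DDX4, the helicase Vasa, and LIN28B, an inhibitor of let-7 microRNAs, had 12.4 FPKM (1803 counts) and 11.8 FPKM (3927 counts), while DAZL (0.0767 FPKM) and NANOG (0.0385 FPKM) were off. None of 6 epithelial and none of 3 thrombocyte markers was on. COL1A1 and TUBB3 passed the threshold on 12 and 9 counts alone. Whether other cells contributed to these levels was not tested.

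**Figure D3:**
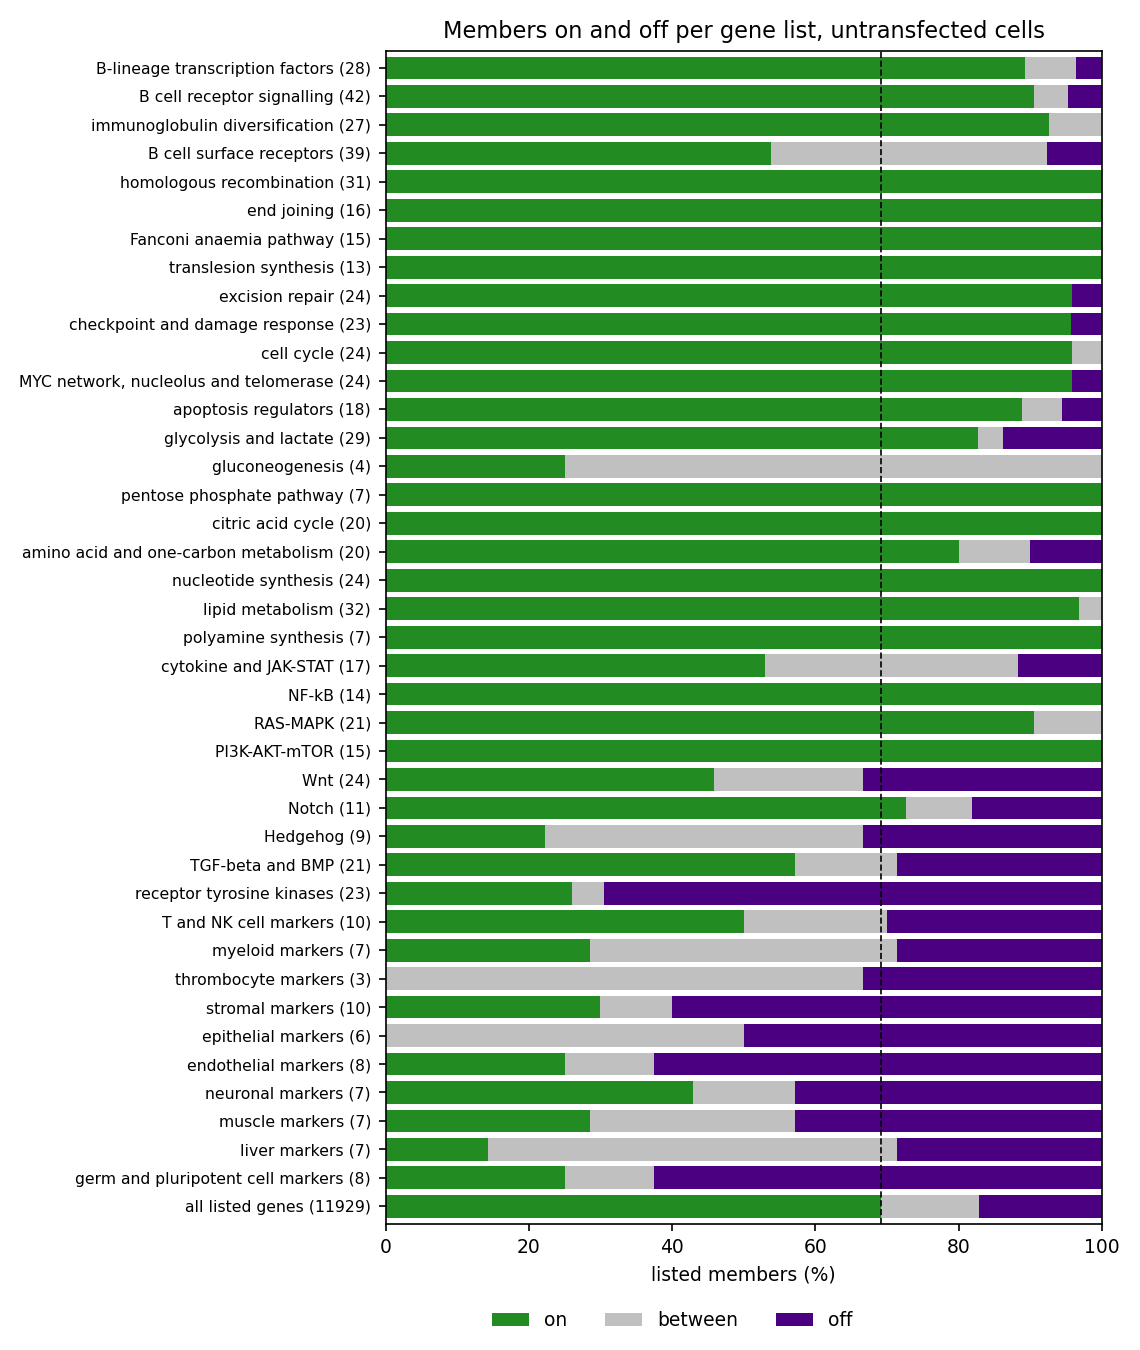
Share of listed genes that were on (FPKM at least 1), between or off (below 0.1) in each gene list with more than 1 listed gene, untransfected library. The number listed is in brackets, all listed genes are in the bottom row, and the dashed line marks their 69.2% on. The homologous recombination, Fanconi, end joining and translesion lists were on throughout. Receptor tyrosine kinases (16 of 23 off), Hedgehog, gluconeogenesis and most marker lists of other cell types had small shares on. In gluconeogenesis 3 of 4 genes lay between, and in Hedgehog 4 of 9 lay between and 3 were off.

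Of the 6 gene families described here, DNA repair had the highest share of genes on. Of 121 listed genes in 6 lists, 119 (98.3%) were on and 2 were off, with a median of 10.3 FPKM, against 69.2% on, 17.1% off and 7.43 FPKM over all listed genes. All 31 homologous recombination genes were on. The strand exchange mediators XRCC3 and XRCC2 had 20.3 FPKM (2442 counts) and 3.74 FPKM (627 counts), the motor protein RAD54L 19.0 FPKM and its relative RAD54B 8.01 FPKM. BRCA1 had 13.5 FPKM and BRCA2, a mediator of strand exchange, 3.99 FPKM. RAD52 had 9.18 FPKM, and the helicase BLM, which dissolves crossed intermediates, 15.5 FPKM. BLM had no row among the counts, so the reads behind its level are not known. End resection genes ran from RBBP8, the nuclease cofactor CtIP, at 5.60 FPKM to the nuclease EXO1 at 18.7 FPKM.

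End joining, the rival route of break repair, was on in all 16 listed genes but at unequal levels. The Ku subunits XRCC6 and XRCC5 had 25.9 and 9.57 FPKM, the kinase PRKDC 4.88 FPKM and the ligase LIG4 2.78 FPKM on 605 counts. Of the alternative route, PARP1 had 82.0 FPKM and LIG3 33.4 FPKM, while POLQ, the polymerase of microhomology joining, had 1.10 FPKM on 582 counts and was the lowest repair gene that was on. TP53BP1, which shields ends from resection, had 12.2 FPKM.

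Crosslink repair and damage tolerance were also on throughout. All 8 Fanconi core complex genes were on, from FANCB at 1.42 to the ubiquitin ligase FANCL at 21.6 FPKM, and their substrates FANCD2 and FANCI had 16.6 and 9.34 FPKM. USP1, which removes the ubiquitin, had 62.8 FPKM. Of translesion polymerases, POLH, which copies past ultraviolet damage, had 24.3 FPKM, REV1 10.4 FPKM and REV3L, the catalytic subunit of polymerase zeta, 4.54 FPKM. POLN had 7.45 FPKM on 7205 counts, which is many counts for its FPKM, and whether reads of an overlapping gene are among them was not tested. The ubiquitin ligase RAD18 had 33.8 FPKM, its target PCNA, the sliding clamp, 174 FPKM and the conjugating enzyme subunit UBE2V2 191 FPKM.

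In excision repair, 23 of 24 genes were on. Among the higher ones were XPA, a damage verification factor, at 97.1 FPKM, DNA polymerase POLB at 83.2 FPKM and the flap nuclease FEN1 at 78.1 FPKM. MGMT, which reverses alkylation of guanine, was on at 62.7 FPKM. NEIL2, a glycosylase, was off at 0.0299 FPKM with a count of 0, whereas its relatives NEIL1 and NEIL3 had 9.92 and 5.09 FPKM.

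Damage checkpoint kinases were on in all 11 cases, led by CHEK1 at 41.6 FPKM, against 8.12 for CHEK2, 5.54 for ATR and 4.84 FPKM for ATM. Genes known to be induced by DNA damage diverged. CDKN1A, the cell cycle inhibitor p21, was off at 0.0484 FPKM on 4 counts (exact Poisson 95% interval 1.09 to 10.2). Others were on, with SESN1 at 67.3, GADD45A at 39.1 and MDM2 at 10.5 FPKM. The transcription factor TP73 had 26.6 FPKM (4877 counts), 23.0-fold above its relative TP63 at 1.16 FPKM. Among the other genes listed as inhibitors, CDKN2A, of the INK4 locus, had 252 FPKM on 2088 counts. CDKN2C had 30.5, CDKN1B 18.6 and CDKN2B 1.98 FPKM. Which product of CDKN2A the reads come from was not tested. For CDKN2A the FPKM and count together correspond to only 185 bases of transcript, against a median of 3347 bases over the 8057 genes that were on with at least 100 counts. Its rank by FPKM is uncertain for that reason.

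Growth and division genes were on in 62 of 66 cases (93.9%), with a median of 24.2 FPKM, against 69.2% and 7.43 FPKM over all listed genes. MYC, the factor near which the virus of bursal lymphomas classically integrates, had 565 FPKM on 108797 counts and ranked 104 of 11929. Its partner MAX had 59.6 FPKM on 1218 counts, which is few counts for its FPKM, so its level is uncertain. The other members of the MYC family were far lower than MYC, MYCL at 3.76 FPKM and MYCN at 0 with a count of 0. MYC was 150.4-fold above MYCL (95% counting interval 137 to 166). Nucleolar genes that MYC is known to drive were on in 10 of 10 cases with a median of 124 FPKM, among them NCL at 775 and the telomerase RNA-binding DKC1 at 265 FPKM. TERT, the reverse transcriptase of telomerase, was on at 2.99 FPKM (1057 counts).

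Of 9 cyclins, 8 were on. CCNB3, a B-type cyclin, had 105 FPKM and CCNA2, the cyclin of S and G2 phase, 75.6 FPKM, while the germline cyclin CCNA1 lay between at 0.224 FPKM. The D cyclins, which couple growth signals to the cycle, were all on, CCND2 at 32.0, CCND1 at 27.0 and CCND3 at 11.6 FPKM. The mitotic kinase CDK1 had 173 FPKM, topoisomerase TOP2A 139.9 FPKM and the proliferation marker MKI67 46.0 FPKM.

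Survival genes were led by BIRC5, survivin, at 77.7 FPKM and BCL2L1, the gene of BCL-xL, at 47.0 FPKM. BCL2L1 was 5.77-fold above BCL2 (8.15 FPKM) and 2.73-fold above MCL1 (17.2 FPKM). BCL2A1, a relative induced by NF-kappa-B, had 0.1001 FPKM on 1 count. On the killing side, BID, which carries the death receptor signal to mitochondria, had 42.5 FPKM, the initiator caspase CASP8 16.4 FPKM, and APAF1, the scaffold of the apoptosome, had 2.16 FPKM.

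Metabolic genes were on in 130 of 143 cases (90.9%) with a median of 41.5 FPKM, against 69.2% and 7.43 FPKM over all listed genes. At several steps of glycolysis 1 member stood far above its relatives. For glucose phosphorylation, HK1 had 34.2 FPKM and HK2 0.191 FPKM on 83 counts, a ratio of 179 (95% counting interval 144 to 225). For the committed step, PFKP had 82.1 FPKM, PFKL 7.02 on 1138 counts and the muscle type PFKM 2.77 FPKM on 24 counts. PFKM has few counts for its FPKM, and its level is uncertain. The aldolase ALDOC had 589 FPKM. ENO1 had 610.4 FPKM, 212-fold above ENO2. The lower pathway was among the most abundant of the cell, with PKM at 1095, GAPDH at 911 and PGAM1 at 871 FPKM.

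**Figure D4:**
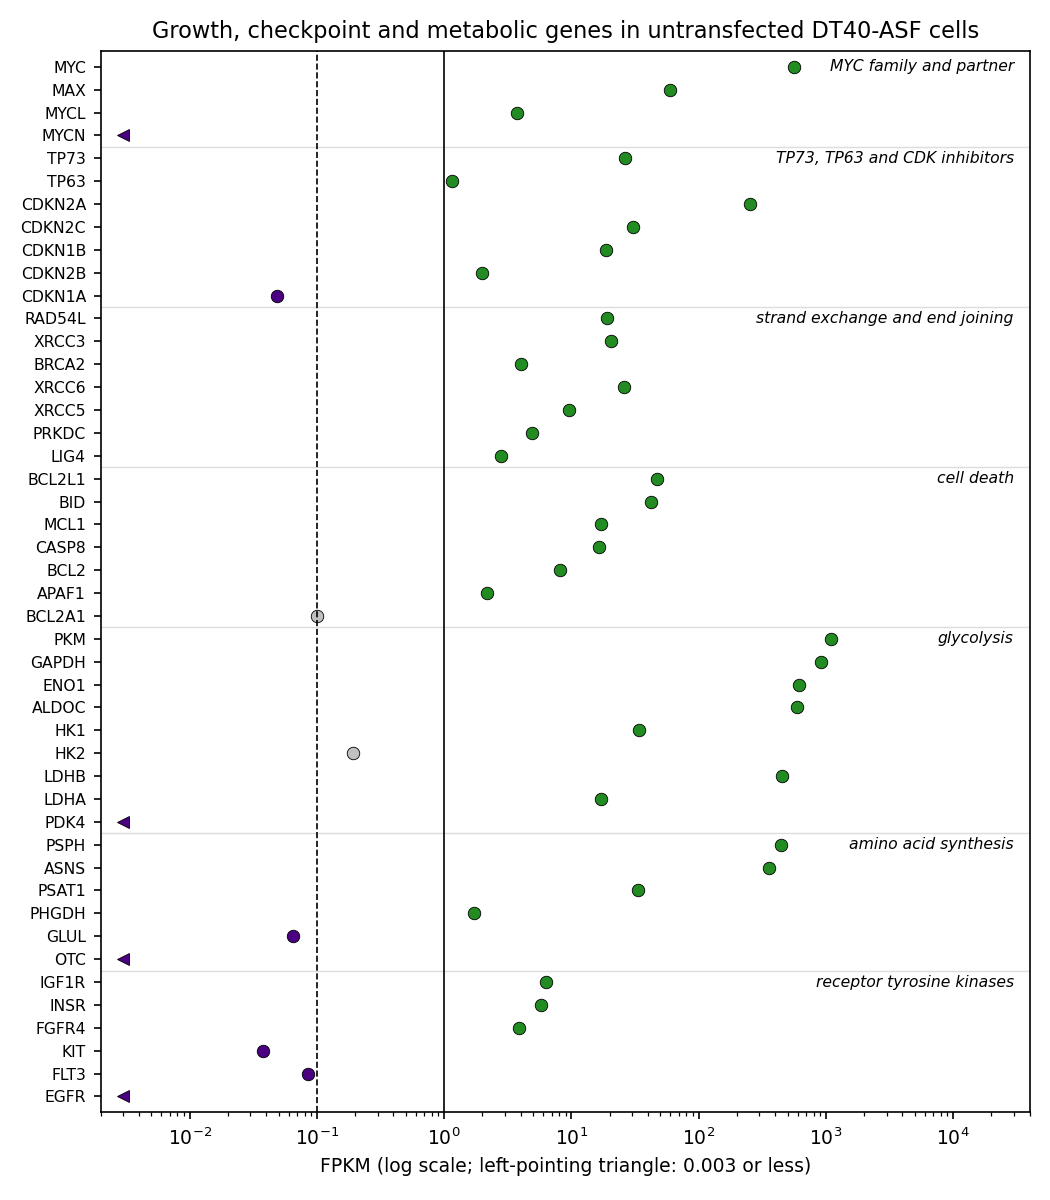
FPKM of growth, checkpoint, repair, cell death, metabolic and receptor tyrosine kinase genes in the untransfected library, 1 point a gene on a log10 axis, with the thresholds for off (below 0.1) and on (at least 1). Paired enzymes are far apart, such as LDHB (453) and LDHA (17.2) or HK1 (34.2) and HK2 (0.191).

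Lactate dehydrogenase was mostly of the heart type. LDHB had 453 FPKM (32324 counts) and LDHA 17.2 FPKM (1481 counts), a ratio of 26.4 (95% counting interval 25.0 to 27.8). The lactate carrier SLC16A1 had 104 FPKM on 24308 counts, and SLC16A3, its glycolytic relative, 3.43 FPKM on 21 counts. The counts of this pair lie much further apart than the FPKM values, so the level of SLC16A3 is uncertain. Of the glucose carriers, SLC2A1 had 30.1 FPKM and SLC2A3 26.7 FPKM, while the fructose carrier SLC2A5 was off. PDK4, a fasting-induced brake on pyruvate dehydrogenase, was listed at 0 with a count of 0, and PDK3 and PDK1 had 37.3 and 32.5 FPKM. Of 4 gluconeogenic genes, the mitochondrial PCK2 alone was on, at 13.1 FPKM.

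All 20 enzymes of the citric acid cycle were on, with a median of 88.6 FPKM and a range from OGDH at 13.2 to SDHC at 374 FPKM. All 7 pentose phosphate enzymes were on, led by PGLS at 413 and TKT at 262 FPKM. In serine synthesis the first enzyme was the low one. PHGDH, which starts the route from glycolysis, had 1.71 FPKM on 182 counts, whereas PSAT1 had 33.3 FPKM (12208 counts) and PSPH, the last enzyme, 442 FPKM (20968 counts). PSAT1 was 19.5-fold and PSPH 258-fold above PHGDH (95% counting interval of the second ratio 223 to 301). The mitochondrial folate enzyme MTHFD2 had 245 FPKM and thymidylate synthase TYMS 142 FPKM.

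In glutamine and aspartate metabolism 6 of 10 genes were on, 2 lay between and 2 were off. ASNS, asparagine synthetase, had 357 FPKM (64948 counts) and GLUD1, glutamate dehydrogenase, 68.4 FPKM. The leucine carrier SLC7A5 had 287 FPKM. GLUL, glutamine synthetase, had 0.0653 FPKM on 9 counts. The urea cycle genes were low, CPS1 at 0.657 FPKM and OTC at 0. All 24 nucleotide synthesis genes were on, with a median of 43.4 FPKM, among them IMPDH2, the first enzyme of guanine nucleotide synthesis, at 543, PRPS1, which makes the activated ribose, at 271, and CAD, the pyrimidine starter, at 61.2 FPKM. RRM2, the ribonucleotide reductase subunit of S phase, had 82.4 FPKM.

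Lipid genes were on in 31 of 32 cases. The fatty acid enzymes ACLY and SCD had 133 and 129.7 FPKM and FASN 45.6 FPKM, and all 13 sterol synthesis genes were on, among them SQLE, squalene epoxidase, at 59.7 FPKM and DHCR7, a reductase of the last steps, at 13.8 FPKM, the lowest of them. PPARG, a lipid-sensing nuclear receptor known from fat and macrophages, was on at 21.1 FPKM (2880 counts). All 7 polyamine genes were on with a median of 106 FPKM, ODC1, the rate-limiting decarboxylase, at 142 FPKM and its antizyme OAZ1 at 637 FPKM.

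Of the signalling genes, 96 of 155 listed genes (61.9%) were on and 37 were off, with a median of 3.26 FPKM, which is below the 69.2% on and 7.43 FPKM of all listed genes. All 14 NF-kappa-B genes, all 15 PI3K and mTOR genes and all 12 MAP kinase cascade genes were on. Other intracellular groups were on in part, with 5 of 8 WNT transducers, 2 of 3 Janus kinases and 7 of 9 STAT factors and their inhibitors. Among receptors, all 7 Notch receptors and targets, 6 of 9 WNT receptors and 6 of 23 receptor tyrosine kinases were on. Ligands differed by family, with 4 of 8 TGF-beta family ligands on. Of 5 listed ligands in the cytokine and JAK-STAT list and 7 listed WNT ligands none was on. The highest were the cytokine IL16 at 0.963 and WNT6 at 0.615 FPKM.

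Within NF-kappa-B, the subunits REL (20.4 FPKM), NFKB1 (14.9 FPKM) and NFKB2 (13.1 FPKM) lay close together, and the feedback inhibitors NFKBIA and TNFAIP3 had 8.57 and 1.73 FPKM. Of the Janus kinases, JAK1 had 128 FPKM (27304 counts), JAK2 7.45 and JAK3, the partner of the common gamma chain IL2RG, 0.117 FPKM on 23 counts. IL2RG itself lay between at 0.333 FPKM. STAT3 led the STAT factors at 51.6 FPKM, and the feedback inhibitor CISH was off on 1 count. In the MAP kinase list, the kinase MAP2K1 (56.4 FPKM) and the GTPase HRAS (53.2 FPKM) were high, and the immediate early genes were uneven, JUN at 28.0, FOS at 1.16 and EGR1 at 0.583 FPKM. Of PI3K genes, the translation repressor EIF4EBP1 had 255 FPKM and the kinase AKT1 41.1 FPKM, while the regulatory subunit PIK3R1 had 1.35 FPKM on 237 counts.

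Developmental pathways were expressed in part. In WNT signalling beta-catenin CTNNB1 had 77.9 FPKM and the receptors FZD6 and LRP6 14.7 and 4.80 FPKM, while the nuclear partners TCF7L2 and LEF1 were off and the target AXIN2 lay between at 0.692 FPKM. In Notch signalling NOTCH1 (14.4 FPKM), NOTCH2 (14.0 FPKM) and their nuclear partner RBPJ (22.1 FPKM) were on, together with the target HEY1 (5.41 FPKM), and of 4 ligands JAG2 alone was on at 1.38 FPKM. In Hedgehog signalling the brakes PTCH1 (6.73 FPKM) and SUFU (35.4 FPKM) were the 2 genes on, and the transducer SMO and the factors GLI1 and GLI2 were off on 8 counts or fewer each.

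The TGF-beta receptors TGFBR1 and TGFBR2 were on at 47.2 and 7.73 FPKM, with the ligand TGFB3 at 18.4 FPKM. Their signal carrier SMAD2 had 15.3 FPKM, while its close relative SMAD3 was just off at 0.0934 FPKM on 19 counts, and the inhibitor SMAD7 was listed at 0. Receptor tyrosine kinases were the most silent signalling list, with 16 of 23 off. The 6 that were on were IGF1R (6.27 FPKM), INSR (5.74 FPKM), FGFR4 (3.87 FPKM), ROR1 (3.04 FPKM), ERBB2 (2.05 FPKM) and NTRK3 (1.04 FPKM). FLT3 and KIT, receptors of early blood progenitors, were off at 0.0851 and 0.0375 FPKM, and EGFR and KDR had a count of 0.

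The count table and the FPKM table gave most genes the same class. With the same cut-offs applied to CPM, 10046 of 11546 genes kept their class, and 38 were on by one measure and off by the other. CPM takes no account of transcript length, and by it 209 of 229 genes fixed as landmarks of their lists kept their class, with none going between on and off. Among the 20 that changed, PRDM1 (7.53 CPM), RAG2 (1.83 CPM), CIITA (1.52 CPM), CD83 (5.15 CPM), HK2 (1.85 CPM) and EGR1 (2.09 CPM) passed 1, and GLUL (0.201 CPM), KIT (0.178 CPM), FLT3 (0.357 CPM), TCF7L2 (0.134 CPM) and DAZL (0.178 CPM) passed 0.1. COL1A1, at 0.267 CPM, fell under 1. Across genes the rank correlation of FPKM with CPM was 0.927, a description of 1 library in which the points share depth. There were 31 genes with an FPKM of at least 1 on fewer than 10 counts, among them the list members ME1 (1.23 FPKM on 5 counts) and TUBB3. Also among them were KDELR3 at 15.6 FPKM with a count of 0 and TMSB10 at 12.4 FPKM on 7 counts, both named after their values were seen. In the other direction, 10 genes had at least 100 counts while their FPKM was below 0.1.

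**Figure D5:**
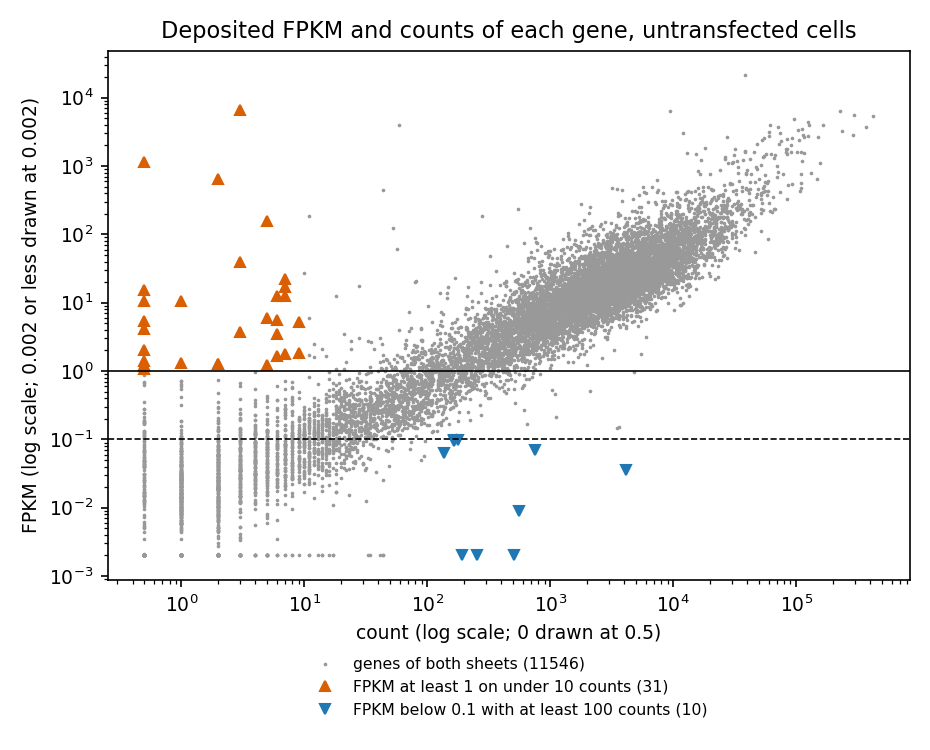
FPKM (vertical) against read count (horizontal) for each gene in both tables of the untransfected library, both axes logarithmic, with the thresholds of FPKM 1 and 0.1 as lines. Most genes lie along 1 band, and the triangles are the 31 with an FPKM of at least 1 on fewer than 10 counts (upper left) and the 10 with an FPKM below 0.1 on at least 100 counts (lower middle).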

How the data were processed

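The RNA was enriched for mRNA, made into a library with a kit that keeps the strand, amplified by PCR and read as paired ends, per the labels' protocols. The tools named in the submitters' processing notes are Bowtie, TopHat, TopHat2, Cuffdiff and Cufflinks 2.2.1, with galGal4 as the genome build. The counts are the authors' deposited whole-number read counts, called absolute on their cover sheet. The deposited FPKM values are what that sheet calls normalised. Not given in the sources used here are the way reads were counted, the annotation release, the strand setting and any further scaling. Without the strand setting, reads of overlapping and antisense genes cannot be told apart, and reads of near-identical copies may have been split.

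The untransfected column alone was read, with Python 3.11.15, pandas 2.3.3, NumPy 2.4.6, SciPy 1.17.1 and Matplotlib 3.10.9. Its total was 44868987 counts, which sets the precision. Counts have exact Poisson and shares exact Clopper-Pearson 95% intervals, and ratios of FPKM have exact conditional binomial intervals from the 2 genes' counts. The Poisson intervals and the calls of on and off were tested on simulated data, and the intervals of shares and ratios were not. CPM is the deposited count scaled to a total of 1000000, and TPM is FPKM scaled to a sum of 1000000. The 41 gene lists held 851 entries (841 symbols), matched by the symbols in the tables or by 3 hand-written synonyms. Of these entries, 696 had an FPKM, 9 had a count alone and 146 were not listed under these names. A gene that belongs to several lists was counted in each of them and once in a family of lists. Some members count in their lists but are not reported here by name. Members and lists were chosen with earlier results of these data known. Genes named were the 30 of highest FPKM, landmarks fixed for each list, the 3 highest and 3 lowest members of a list, members beside their count, and SRSF1, and any other is said to be chosen after its values were seen. Alternatives were other thresholds, TPM, CPM, a minimum of 10 counts, and TPM with mitochondrial and ribosomal protein genes left out of the scaling. A minimum of 100 counts and leaving out short RNAs were chosen after seeing the data.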

Additional observations from a re-analysis of the deposited data

Results flagged for a closer look

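A set of 10 genes had at least 100 counts although the FPKM table lists them below 0.1, so they were off by the measure used above while their reads exceeded the limit that a count of 0 allows. TGFBI, an extracellular matrix protein induced by TGF-beta, had 4161 counts at 0.0351 FPKM. CSPG5, a proteoglycan known from brain, had 756 counts at 0.0692 FPKM, and IL17RD, an inhibitor of FGF signalling, had 558 counts at 0.00892 FPKM. GAS1, a co-receptor of Hedgehog ligands, had 510 counts and was listed at an FPKM of 0, as were MIR221 with 252 counts and TIGD5 with 192 counts. GRK5, a kinase of G protein-coupled receptors, had 178 counts at 0.0967 FPKM. PCSK5, a proprotein convertase, had 166 counts at 0.0950 FPKM and ADGRV1, an adhesion receptor, 165 counts at 0.0977 FPKM. KCNH4, a potassium channel, had 136 counts at 0.0636 FPKM. The reason for these conflicts was not tested.

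A further 5 genes appear in the count table alone with at least 100 counts, and so have no level per length. They are MIR1650 (273 counts), the receptor GPR75 (170 counts), gga-mir-6566 (139 counts), MIR1683 (116 counts) and the RNA-binding protein MEX3A (104 counts). In all, 55 of the 331 genes of the count table alone had more than 3 counts.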

How the results depend on the processing

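The description rests on 1 library, so no replicate could be left out. No paired analysis was possible because there was 1 library and no test. Of 533 list counts recomputed under other thresholds, units and scalings, 455 were within 1.5 times of the value reported, and for genes on this held for 266 of 287. With mitochondrial and ribosomal protein genes left out of the scaling, 1344 genes were off in place of 2040, and the members off fell to 1 in DNA repair, 3 in metabolism, 23 in signalling and 22 among markers of other cell types. By CPM in place of FPKM, 2 metabolic and 24 signalling genes were off. At an off threshold of 0.3, 13 B-lineage and 4 growth genes were off, and at an on threshold of 3, 9 markers of other cell types were on. The 100 highest genes by count held 19.9% of the counts, and the share of FPKM in the 100 most abundant genes was 25.2% without mitochondrial and ribosomal protein genes and 42.2% without short RNAs, an alternative chosen after seeing the data. Of the 30 highest genes by FPKM, 16 were also among the 30 highest by CPM. Off calls rest on few reads, with a median of 2 counts.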

Other observations

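Gene families picked by their symbols, after values of these data were known, are set beside the 69.2% on and 17.1% off over all listed genes. All 59 mitochondrial ribosomal protein genes listed were on, with a median of 46.3 FPKM, and so were all 25 nuclear subunits of complex I, with a median of 76.5 FPKM, and all 34 proteasome subunits, with a median of 103.5 FPKM and PSMB7 highest at 496 FPKM. The 18 cytosolic aminoacyl-tRNA synthetases, which load amino acids onto tRNA, were all on with a median of 131 FPKM, led by GARS at 436 FPKM, and 39 of 42 initiation factors were on. Of the mitochondrial carriers of the SLC25 family, 29 of 32 were on, and of 213 other solute carriers 120 (56.3%) were on and 60 (28.2%) were off.

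Families known from excitable and epithelial tissue had fewer genes on. Of 58 potassium channel genes, 15 (25.9%) were on, 15 lay between and 28 (48.3%) were off. None of 7 GABA-A receptor subunits, none of 11 keratins and none of 9 SOX genes was on. Single members stood out in families that were otherwise low. CDH11, a cadherin known from mesenchyme, had 36.4 FPKM, while 11 of 15 cadherins were off. CLDN12 was the 1 claudin on of 10, at 9.71 FPKM, and COL9A3, a collagen known from cartilage, was highest of 39 collagens at 12.7 FPKM. Among 14 interleukins, IL18, which is processed by inflammatory caspases, was the 1 that was on, at 86.2 FPKM on 4292 counts. CCL5 was the 1 chemokine on of 5, at 4.04 FPKM.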
